A study of Mus musculus with 12 samples.

Results

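Bone morphogenetic proteins (BMPs) are secreted dimers of the TGF-β family, and a set of secreted antagonists binds them outside the cell and keeps them from their receptors. The genes described are 4 BMP ligands (Bmp2, Bmp4, Bmp5 and Bmp7) and 5 antagonists (Grem1, Nog, Chrd, Chrdl1 and Fst), 9 of the 24279 genes in the deposited tables, taken by gene symbol in mouse embryonic fibroblasts. They were chosen by symbol with the fold changes of these libraries already known, so the values below describe them. Free ligand brings type I and type II serine/threonine kinase receptors together. The type I receptor then phosphorylates SMAD1, SMAD5 and SMAD9, which enter the nucleus with SMAD4 and raise targets such as the Id genes. In the embryo the balance of ligand and antagonist patterns the dorsal neural tube, the somites and the limb bud, and fibroblasts of the embryo make several of both.

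The libraries hold polyadenylated RNA of primary fibroblasts from embryos at embryonic day 12.5, in 4 groups of 3. Fortified mutant cells were Rsg1L3P/L3P, from F3 mice kept on a 10 ppm folic acid diet, and grew in medium with 3600 ng/mL folic acid. Fortified wild type (wt) cells had that diet and medium and no Rsg1 change. Moderate mutant cells were Rsg1L3P/L3P and moderate wild type cells wt, both with a 2 ppm diet and 225 ng/mL in the medium. Rsg1 encodes a small GTPase-like protein that takes part in building primary cilia. Diet and medium differed at the same time and cannot be told apart. The labels are silent on whether replicates are separate embryos. Moderate wild type 1 and fortified wild type 1 carried Xist, the RNA of the inactive X chromosome, while moderate wild type 2 and 3 and fortified wild type 3 had RNA of 4 Y-linked genes, so replicates of both wild type groups came from embryos of either sex. Fortified wild type 2 had under 1000 Xist counts and 0 Y-linked counts. All 6 mutant libraries carried Xist and had 0 Y-linked counts, and for them the spread behind the p values may be technical.

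The libraries held 39339190 to 48475963 expected counts. All 8 fibroblast markers checked (Col1a1, Col1a2, Col3a1, Pdgfra, Thy1, Dcn, Lum and Vim) were detected in every library. On the first principal component of all genes, which took 30.2% of the variance, libraries stood apart at both ends. Fortified mutant 2 and 3 and moderate wild type 1 lay at the high end (48.1, 57.5 and 68.0, the next at 4.74), and moderate wild type 2 and 3 at the low end (-68.6 and -53.7, the next at -18.9). The 3 at the high end had the highest scores for 9 skeletal muscle markers and for 8 neuron markers, none of which was at 0 in any library. With Xist in 6 of 6 mutant and 2 of 6 wild type libraries, genotype and Xist carriage are partly mixed.

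Transcript levels of the 9 genes spanned a wide range. Per length, Bmp4 had the highest mean over the 12 libraries at 146 TPM ± 56.2 (SD, n = 12), followed by Grem1 at 101 ± 117 and Fst at 64.7 ± 23.5 TPM. Nog (14.6 TPM), Bmp7 (8.64 TPM), Bmp5 (6.10 TPM), Bmp2 (4.22 TPM) and Chrd (3.73 TPM) were lower, and Chrdl1 was lowest at 0.94 TPM. Grem1, with an SD over the libraries of 117 TPM, lay above Bmp4 and Fst in some libraries and below them in others. Nog had more TPM than Bmp7 in every library, the closest in fortified mutant 1 at 12.3 and 11.7 TPM. The order of neighbours among Bmp7, Bmp5, Bmp2 and Chrd changed between libraries. All 9 genes passed the filter on low counts. Between libraries Grem1 varied the most, 25.0-fold on the scale of library-scaled counts (CPM), and Chrd the least, 2.68-fold.

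**Figure D1:**
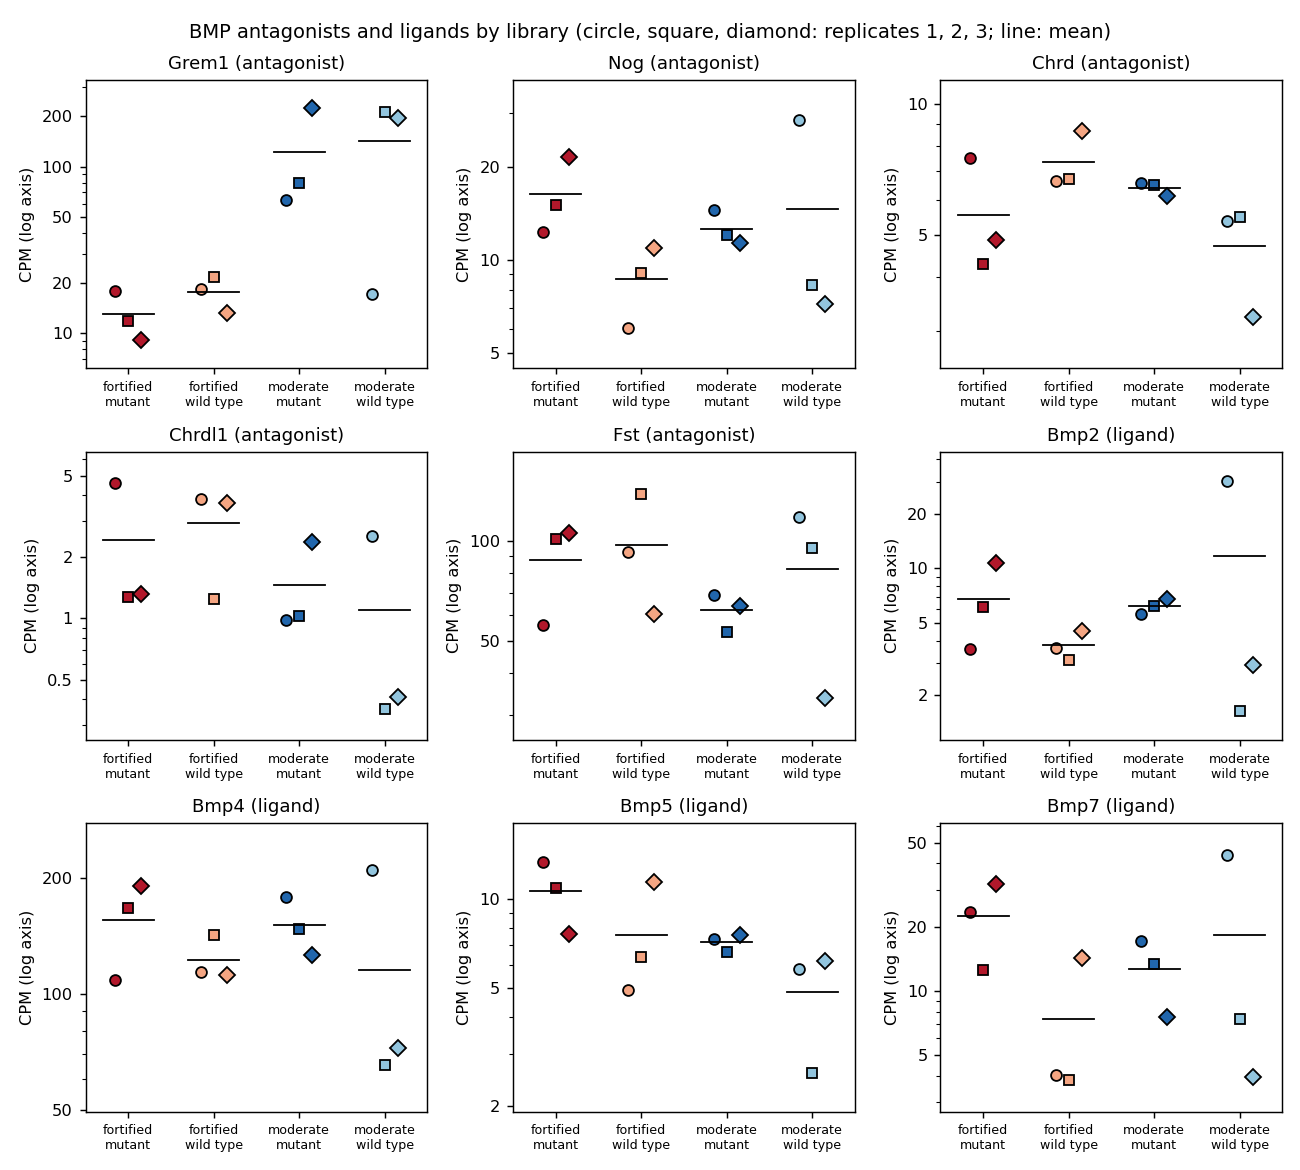
CPM (log axis) of each gene in each library, by group, with fortified groups left of moderate ones and mutant left of wild type; circles, squares and diamonds are replicates 1, 2 and 3 and the line is the group mean. Grem1 lies between 9.07 and 21.7 CPM in the 6 fortified libraries and at or above 63.3 CPM in all moderate libraries except moderate wild type 1 at 17.1 CPM.

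Grem1 (ENSMUSG00000074934.3, chr2:113746164-113758646 of GRCm38, minus strand) encodes gremlin 1, an antagonist that binds BMP2, BMP4 and BMP7 and holds BMP signalling down in the limb bud and in connective tissue cells. Its level was low in fortified cells and high in most moderate cells. Grem1 had 18.0, 11.9 and 9.07 CPM in the fortified mutant libraries, against 63.3, 79.6 and 226 CPM in the moderate mutant ones. In wild type cells Grem1 had 18.4, 21.7 and 13.2 CPM in the fortified libraries, against 17.1, 213 and 197 CPM in the moderate ones. The mutant groups did not overlap, while in wild type cells moderate wild type 1 lay among the fortified libraries and the other 2 moderate libraries lay far above them.

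The fitted log2 fold change of Grem1, fortified against moderate, was -3.24 (SE 0.77, adjusted p 0.0359) in mutant cells and -3.00 (SE 0.76, adjusted p 0.0882) in wild type cells. Averaged over the genotypes Grem1 fell by 3.12 on the log2 scale (SE 0.54, adjusted p 0.0069). Mutant minus wild type, these effects differed by -0.24 (SE 1.00, adjusted p 0.955), an error too wide to show them alike. The averaged call held in all 21 alternatives run, with adjusted p up to 0.0364. The call in mutant cells held in 12 of the 21 and was lost without any 1 of the 6 mutant libraries, without fortified wild type 1 or 2, and with replicate numbers as a block, with adjusted p up to 0.123. Without moderate wild type 1 the wild type difference was -3.53 (adjusted p 0.0083). Without moderate wild type 2 and 3, the low-end libraries, it was 0.06 (adjusted p 0.968), and the average was -1.59 (adjusted p 0.0364), with moderate wild type 1 alone in its group and assumed to vary like the others. The wild type difference therefore rests on moderate wild type 2 and 3. Without the 3 libraries at the high end the differences were -2.80 (adjusted p 0.0496) in mutant, -3.52 (adjusted p 0.0113) in wild type and -3.16 (adjusted p 0.0040) on average. The 8 fibroblast markers summed to 7065 to 9231 TPM in fortified mutant libraries and 11196 to 15990 TPM in fortified wild type ones, against 8400 to 8955 TPM in moderate mutant and 5004 to 9443 TPM in moderate wild type ones. The 5 bone markers summed to 8.13 to 19.1 and 27.5 to 73.8 TPM in the fortified mutant and wild type groups, against 14.1 to 29.3 and 12.0 to 18.2 TPM in the moderate ones. The sums of both lists were higher without overlap in fortified than in moderate wild type cells and overlapped in mutant cells. In wild type cells Col1a1, Col1a2, Col3a1, Dcn, Lum and the bone marker Ibsp followed the sums without overlap. Pdgfra, Thy1, Vim and the bone markers Runx2, Sp7, Bglap and Alpl overlapped. Vim had 2618 to 4182 TPM in fortified and 3166 to 4886 TPM in moderate wild type libraries. The part of either list in the Grem1 difference was not tested. In bulk RNA, fewer cells that make a transcript and less of it per cell cannot be told apart.

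Grem1 was the only one of the 9 genes to pass in mutant cells, where 6.93% of all 15186 tested genes passed and 2.74% passed as lower. In wild type cells 0 of the 9 passed in edgeR, which called 0.0263% of all genes there. At an unadjusted p under 0.05 the count in wild type cells was 2 of 9, Grem1 and Chrd, against 19.6% of all genes. DESeq2 called 1 of 9 there, where it called 1197 of all genes. On average over the genotypes 1 of 9 passed, against 17.8% of all genes, and 8.86% of all genes passed as lower. A count of 1 in 9 is near those shares and is no result about the set.

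**Figure D2:**
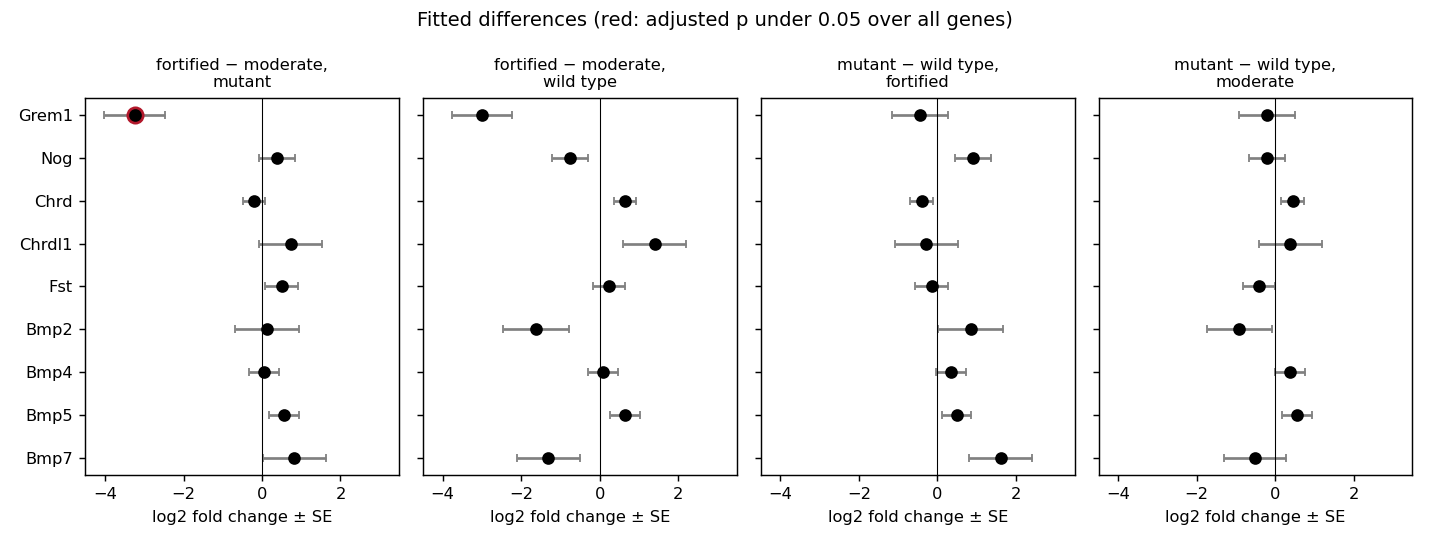
Fitted log2 fold change (horizontal axis) with its SE for the 9 genes in 4 comparisons, fortified minus moderate in each genotype and mutant minus wild type at each folic acid level. Only Grem1 in mutant cells (red) has an adjusted p under 0.05, at -3.24, and its wild type value is -3.00.

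Promoter sequence was available from RefSeq for 4 of the 9 genes, as the 250 bases before the gene start (build GRCm38.p6). Shown are Grem1, whose level differed most, Bmp4, the ligand with the highest level, and Chrd, which shares the GC element GGCGCC with Grem1. The fourth, Bmp5, held a SMAD box (GTCTG at -134 to -130) and no GGCGCC, and is described without its letters. All 3 windows hold no annotated exon. Each is written 5′ to 3′ on the strand of its gene, with motif matches in capitals.
Grem1, chr2:113758649-113758898, minus strand: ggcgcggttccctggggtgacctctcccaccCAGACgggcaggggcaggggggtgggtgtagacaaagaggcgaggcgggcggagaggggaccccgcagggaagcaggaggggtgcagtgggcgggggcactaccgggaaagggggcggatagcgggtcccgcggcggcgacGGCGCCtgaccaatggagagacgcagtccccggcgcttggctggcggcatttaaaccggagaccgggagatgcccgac
Chrd, chr16:20732877-20733126, plus strand: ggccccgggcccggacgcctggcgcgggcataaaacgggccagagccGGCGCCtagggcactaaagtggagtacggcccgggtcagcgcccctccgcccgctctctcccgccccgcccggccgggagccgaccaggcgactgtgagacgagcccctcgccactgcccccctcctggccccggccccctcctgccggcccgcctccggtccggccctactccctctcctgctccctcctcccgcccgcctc
Bmp4, chr14:46390670-46390919, minus strand: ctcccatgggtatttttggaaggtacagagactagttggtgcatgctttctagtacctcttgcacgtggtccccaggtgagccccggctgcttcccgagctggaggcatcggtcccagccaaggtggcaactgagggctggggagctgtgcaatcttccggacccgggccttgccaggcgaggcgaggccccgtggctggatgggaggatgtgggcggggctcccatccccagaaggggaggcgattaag
3 motifs were searched on both strands. GGCGCC is a GC-rich element that BMP SMADs bind. CAGAC, which reads as its complement GTCTG on the opposite strand, is the SMAD box. TATAAA, with TTTATA as its opposite strand, is the TATA box. The Grem1 window holds GGCGCC at -78 to -73 and CAGAC at -219 to -215 from the gene start, and the Chrd window holds GGCGCC at -203 to -198. The Bmp4 window matched none of the 3 motifs. Of 32851 mouse promoters of that length, 9.59% hold GGCGCC, 42.2% hold the SMAD box and 12.4% the TATA box, so the matches are common ones. GC content was 72.0% at Grem1, 78.0% at Chrd and 63.2% at Bmp4, against a median of 52.4% over all promoters, and the windows held 24, 28 and 11 CG dinucleotides in that order, against a median of 6.

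Nog (ENSMUSG00000048616.4, chr11:89300638-89302332, minus strand) encodes noggin, which binds BMP2, BMP4 and BMP7 tightly, takes part in patterning the neural tube and is needed to form the joints. Nog had 12.4, 15.1 and 21.6 CPM in the fortified mutant libraries, against 6.04, 9.07 and 10.9 CPM in the fortified wild type ones. In moderate folic acid Nog had 14.5, 12.1 and 11.4 CPM in the mutant libraries, against 28.4, 8.30 and 7.20 CPM in the wild type ones. The fortified groups did not overlap, with mutant higher, and moderate wild type 1 was the highest library of all. Mutant against wild type, the log2 fold change of Nog was 0.92 (SE 0.46, adjusted p 0.939) in fortified cells and -0.21 (SE 0.46, adjusted p 0.941) in moderate cells, and neither passed. The fortified difference of Nog was 0.29 (adjusted p 0.994) with Xist carriage as a covariate, and the moderate one was 0.71 without moderate wild type 1. All 6 mutant libraries carried Xist, so that covariate is fitted from the wild type libraries alone, moderate wild type 1 among them. Fortified wild type 1, the library of its group with Xist, had 6.04 CPM of Nog. The value of 0.29 therefore cannot tell what part Xist carriage has in the fortified difference.

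Chrd (ENSMUSG00000006958.14, chr16:20733127-20742384, plus strand) encodes chordin, an antagonist of BMP4 and BMP7 that secreted proteases of the tolloid family cleave. Chrd was low and even. It had 7.53, 4.27 and 4.87 CPM in fortified mutant and 6.65, 6.71 and 8.66 CPM in fortified wild type libraries. It had 6.58, 6.51 and 6.15 CPM in moderate mutant and 5.36, 5.50 and 3.24 CPM in moderate wild type libraries. All 3 fortified wild type libraries lay above all 3 moderate wild type ones, with a log2 difference of 0.64 (SE 0.29, adjusted p 0.248), and the fortified and moderate mutant libraries overlapped, with -0.21 (SE 0.29, adjusted p 0.702).

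Chrdl1 (ENSMUSG00000031283.16, chrX:143285674-143394262, minus strand) encodes chordin-like 1, which binds BMP4 and is X-linked. It rested on 14 to 219 counts a library. Chrdl1 had 4.62, 1.27 and 1.32 CPM in fortified mutant and 3.82, 1.25 and 3.69 CPM in fortified wild type libraries, against 0.98, 1.03 and 2.35 CPM in moderate mutant and 2.53, 0.36 and 0.41 CPM in moderate wild type ones. Its groups all overlapped, and moderate wild type 2 and 3 were the lowest libraries. The log2 difference of Chrdl1 between fortified and moderate wild type cells was 1.40 (SE 0.81, adjusted p 0.357). It was 2.91 (adjusted p 0.0496) without moderate wild type 1 and 2.91 (adjusted p 0.0330) without the 3 libraries at the high end. Moderate wild type 1 and fortified wild type 1 carried Xist, and the other libraries of both wild type groups had under 1000 Xist counts. With Xist carriage as a covariate 0 of the 9 genes passed in this contrast, Chrdl1 included. The part of Xist carriage in the Chrdl1 level was not tested otherwise.

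Fst (ENSMUSG00000021765.9, chr13:114452290-114458951, minus strand) encodes follistatin, which binds activins tightly and several BMPs more weakly. Fst had 55.8, 102 and 106 CPM in fortified mutant and 92.8, 139 and 60.1 CPM in fortified wild type libraries. It had 68.7, 53.4 and 63.9 CPM in moderate mutant and 118, 95.6 and 33.8 CPM in moderate wild type libraries. All of its groups overlapped. Fortified against moderate, the log2 fold change of Fst was 0.50 (SE 0.42, adjusted p 0.491) in mutant and 0.24 (SE 0.42, adjusted p 0.783) in wild type cells.

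Of the ligands, Bmp4 (ENSMUSG00000021835.15, chr14:46383520-46390669, minus strand) is the one that dorsal and lateral embryonic tissue makes most widely, and it made up 81.5 to 94.3% of the summed ligand TPM in the 12 libraries. Bmp4 had 108, 167 and 190 CPM in fortified mutant and 114, 142 and 112 CPM in fortified wild type libraries. It had 178, 147 and 126 CPM in moderate mutant and 209, 65.5 and 72.4 CPM in moderate wild type libraries. The mutant groups overlapped throughout, and among wild type cells the 3 fortified libraries lay between moderate wild type 1 and the other 2 moderate libraries. The log2 difference of Bmp4, fortified against moderate, was 0.04 (SE 0.38, adjusted p 0.955) in mutant and 0.09 (SE 0.38, adjusted p 0.925) in wild type cells. The wild type value was 0.83 (adjusted p 0.0610) without moderate wild type 1 and 0.84 (adjusted p 0.0341) without the 3 libraries at the high end.

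Bmp2 (ENSMUSG00000027358.6, chr2:133552159-133562885, plus strand) is the closest relative of Bmp4 among these ligands and drives cartilage and bone formation. It had 3.58, 6.11 and 10.7 CPM in fortified mutant and 3.67, 3.13 and 4.54 CPM in fortified wild type libraries, against 5.58, 6.22 and 6.80 CPM in moderate mutant and 30.4, 1.65 and 2.94 CPM in moderate wild type ones. Moderate wild type 1 held more Bmp2 than any other library, and the group's other 2 libraries held the least of all 12. The log2 difference of Bmp2 in wild type cells, fortified against moderate, was -1.63 (SE 0.84, adjusted p 0.309), and it was 0.72 (adjusted p 0.325) without moderate wild type 1.

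Bmp7 (ENSMUSG00000008999.7, chr2:172868012-172940321, minus strand) acts in kidney, eye and limb formation and pairs with Bmp2 or Bmp4 chains in dimers. Bmp7 had 23.6, 12.6 and 31.9 CPM in fortified mutant libraries, against 4.04, 3.83 and 14.4 CPM in fortified wild type ones. In moderate folic acid it had 17.3, 13.5 and 7.60 CPM in mutant libraries, against 43.7, 7.40 and 3.97 CPM in wild type ones. The fortified groups overlapped by 1 library each, with mutant cells at 22.7 ± 9.70 CPM and wild type cells at 7.42 ± 6.03 CPM (SD, n = 3 each). Mutant against wild type, the log2 fold change of Bmp7 was 1.61 (SE 0.81, adjusted p 0.939) in fortified cells and -0.52 (SE 0.79, adjusted p 0.903) in moderate cells. The fortified value was 0.39 (adjusted p 0.994) with Xist carriage as a covariate, and the moderate value was 1.17 without moderate wild type 1. As for Nog, that covariate is fitted from wild type libraries alone, and fortified wild type 1, which carried Xist, had 4.04 CPM. The difference between the fortified and moderate genotype contrasts of Bmp7 was 2.13 (SE 1.13, adjusted p 0.708).

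Bmp5 (ENSMUSG00000032179.7, chr9:75775364-75900310, plus strand), a ligand that shapes skeletal condensations, had 13.3, 10.9 and 7.65 CPM in fortified mutant libraries, against 7.33, 6.66 and 7.60 CPM in moderate mutant ones. In wild type cells Bmp5 had 4.95, 6.39 and 11.4 CPM in the fortified libraries, against 5.82, 2.60 and 6.17 CPM in the moderate ones. Every fortified mutant library lay above every moderate mutant one, the closest pair at 7.65 and 7.60 CPM, and every moderate mutant library lay above every moderate wild type one. Fortified against moderate, the log2 fold change of Bmp5 was 0.56 (SE 0.38, adjusted p 0.386) in mutant and 0.64 (SE 0.38, adjusted p 0.369) in wild type cells, and 0.60 (SE 0.27, adjusted p 0.139) on average.

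Counted over the 9 genes, groups did not overlap for 2 genes between fortified and moderate mutant cells, Grem1 lower and Bmp5 higher, where 38.2% of all genes did not overlap. Between fortified and moderate wild type cells it was 1 of 9, Chrd, against 20.6% of all genes. Between mutant and wild type it was 2 of 9, Chrd and Bmp5, in moderate cells, against 13.0%, and 1 of 9, Nog, in fortified cells, against 10.3%. By genotype, edgeR called 0 of 9 at either folic acid level, as it called 0 of all 15186 genes, and 0 of 9 had an unadjusted p under 0.05. Over all genes, 7.87% had such a p in moderate and 3.29% in fortified cells, and DESeq2 called 50 and 6 genes, none of the 9 among them. The ligands were 4 of 4 positive in the fortified genotype contrast, with a median log2 fold change of 0.67, against 51.0% positive and a median of 0.01 over all genes. With Xist carriage as a covariate the ligands were 2 of 4 positive, with Bmp2 at -0.97 and Bmp4 at -0.26. That covariate is fitted from wild type libraries alone, among them moderate wild type 1, the highest library for Bmp2 and Bmp4.

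Several of these genes varied together across libraries. Nog, Bmp2, Bmp4 and Bmp7 were each highest in moderate wild type 1 and next highest in fortified mutant 3. Over the 12 libraries the Pearson correlation of log2 CPM was 0.91 between Nog and Bmp7, 0.86 between Nog and Bmp2 and 0.82 between Bmp2 and Bmp4, as a description of libraries that share groups and makeup. Over the 9 libraries without the 3 at the high end these correlations were 0.84, 0.59 and 0.78 in that order. Over the 12 libraries Grem1 ran against the other 8, with correlations from -0.60 (Chrdl1) to -0.26 (Chrd). Over those 9 libraries the correlations of Grem1 ran from -0.73 (Chrdl1) and -0.71 (Chrd) to -0.09 (Bmp2) and -0.03 (Nog), so the last 2 genes no longer ran against it. Moderate wild type 1 and fortified mutant 3 held muscle marker scores of 1.08 and 0.92 and neuron marker scores of 1.56 and 0.70, as mean log2 CPM over the list minus its mean over all libraries. Fortified mutant 2 had scores of 1.06 and 1.34, above those of fortified mutant 3. Its 12.6 CPM of Bmp7, 6.11 CPM of Bmp2 and 167 CPM of Bmp4 lay within the range of the moderate mutant libraries. Its 15.1 CPM of Nog lay above that range. Over the 12 libraries the neuron score correlated at 0.85 with Bmp2, 0.79 with Nog, 0.78 with Bmp4 and 0.58 with Bmp7. For the muscle score these correlations were 0.77, 0.76, 0.60 and 0.70 in that order. The 9 muscle markers summed to 645 to 2678 TPM in fortified mutant, 399 to 1325 in fortified wild type, 1661 to 2176 in moderate mutant and 856 to 3277 in moderate wild type libraries. The 8 neuron markers summed to 64.5 to 208, 77.0 to 107, 104 to 109 and 80.3 to 293 TPM in those groups in that order, and the part of either cell type in the ligand levels was not tested.

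**Figure D3:**
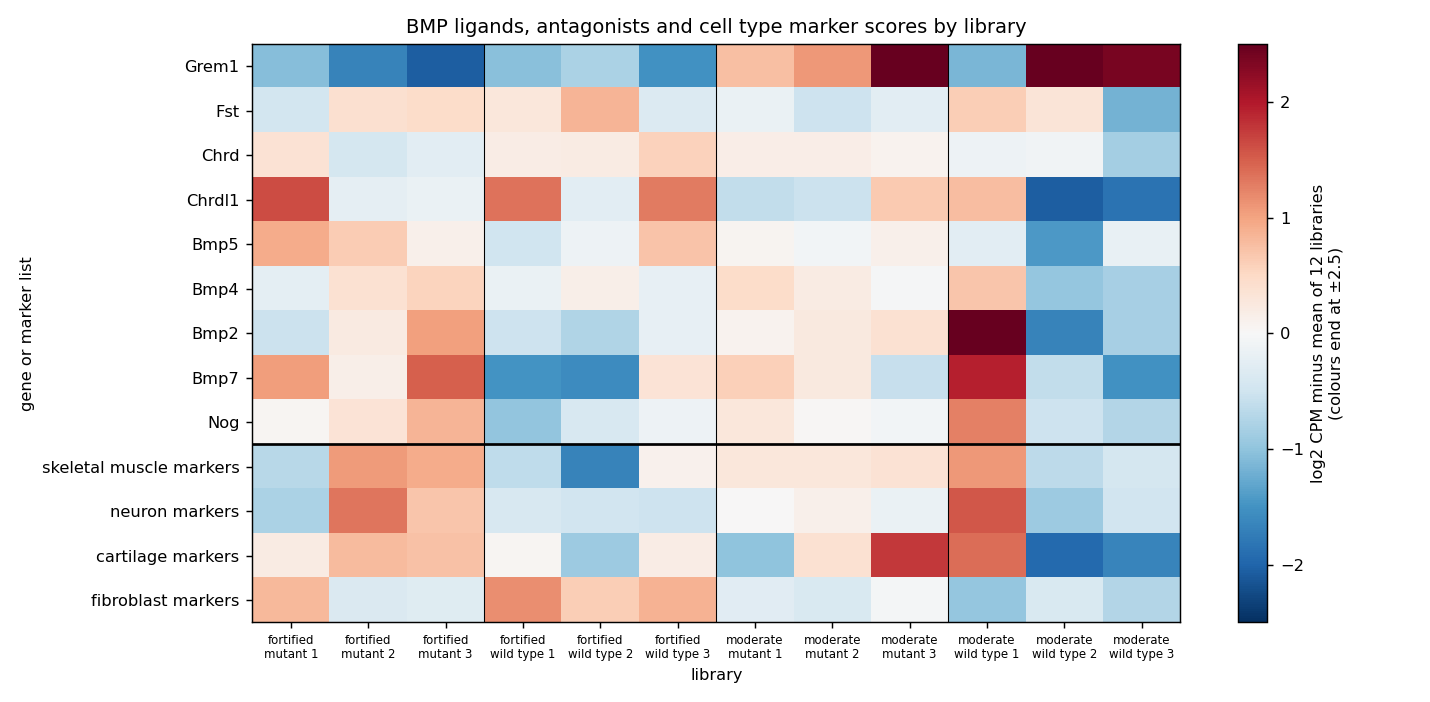
Log2 CPM of the 9 genes, each minus its mean over the 12 libraries, above the scores of 4 marker lists on the same scale, with 1 column per library and colours that end at ±2.5. Bmp2, Bmp7 and Nog are high in moderate wild type 1, where the neuron score is 1.56 and the muscle score 1.08, and Grem1 is low there and in every fortified library.

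Summed per length, antagonist transcripts came to 99.3 ± 18.9 TPM in fortified mutant and 107 ± 27.6 TPM in fortified wild type cells, against 258 ± 120 TPM in moderate mutant and 273 ± 111 TPM in moderate wild type cells (SD, n = 3 each). Ligand transcripts summed to 173 ± 46.9, 133 ± 5.19, 202 ± 42.1 and 152 ± 127 TPM in the same order of groups. Grem1 made up 9.69 to 26.8% of antagonist TPM in the fortified libraries, against 14.9 to 87.6% in the moderate ones, where moderate wild type 1 was the lowest. Without Grem1 the antagonists summed to 32.3 to 143 TPM, and both extremes were moderate wild type libraries.

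The ratio of antagonist to ligand TPM was 0.628, 0.591 and 0.532 in fortified mutant libraries and 0.850, 0.957 and 0.607 in fortified wild type ones. It was 0.762, 0.953 and 2.47 in moderate mutant and 0.565, 4.81 and 3.45 in moderate wild type libraries. Only 3 of the 12 libraries, all moderate, held more antagonist than ligand transcripts, and the 3 fortified mutant libraries lay below all 3 moderate mutant ones. The median over genes of log2 TPM minus log2 CPM ran from -0.31 to -0.76 between libraries, which touches the sums and not the ratio or the shares. It was -0.31, -0.33 and -0.43 in moderate mutant and -0.70, -0.75 and -0.62 in fortified mutant libraries, so TPM sums lean lower in fortified mutant cells. Fitted on counts, the ligands were 4 of 4 positive in fortified against moderate mutant cells, against 53.0% of all genes, and 0 passed. Their median log2 fold change was 0.35, against 0.04 over all genes, with Bmp4 at 0.04 (SE 0.38) and Bmp2 at 0.13 (SE 0.82). Transcript sums say nothing of how much protein was secreted or how tightly each antagonist binds.

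**Figure D4:**
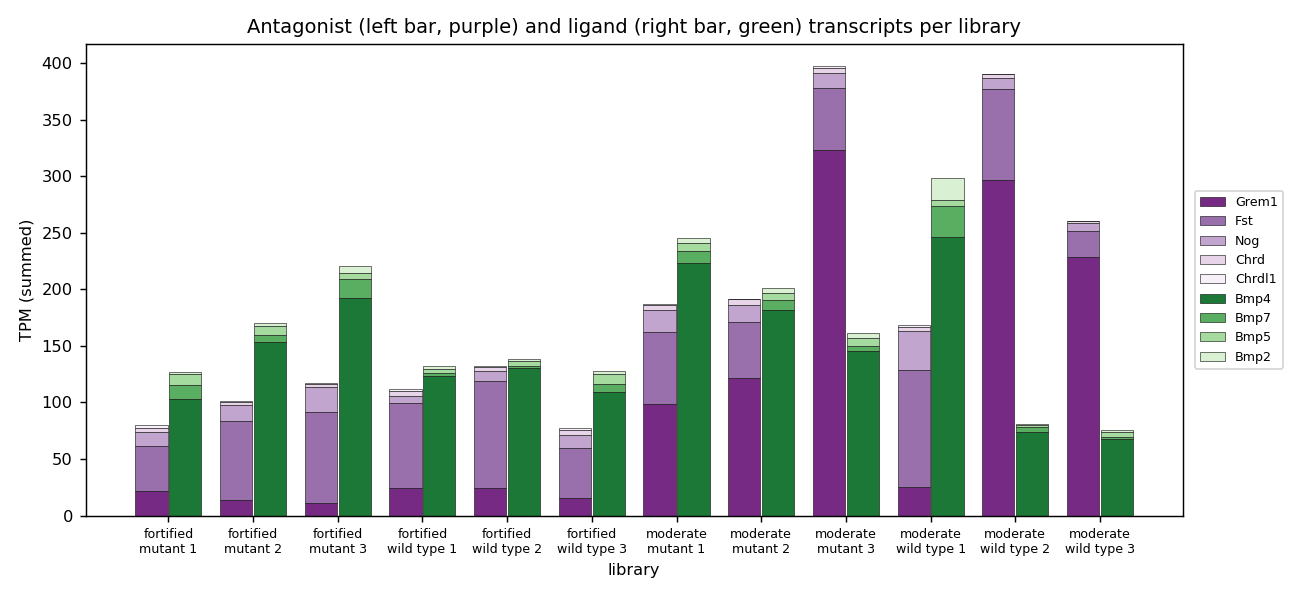
Summed TPM of the 5 antagonists (left bar of each pair, purple) and of the 4 ligands (right bar, green) in each library, stacked by gene. Grem1 (darkest purple) is the main part of the antagonist bar in 5 moderate libraries, and Bmp4 (darkest green) is the main part of every ligand bar.

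Further genes of the pathway were read from lists set by function. In the edgeR fit without covariates, no gene of these lists passed in a folic acid contrast within one genotype or in a genotype contrast. On average over the genotypes, 5 of the 57 tested genes of these lists passed in that fit, a smaller share than the 17.8% of all genes. Among 13 receptors and co-receptors 1 rose and 2 fell. Bmpr1b, a type I receptor, fell by 1.18 on the log2 scale (SE 0.28, adjusted p 0.0178). Acvr2a, a type II receptor shared with activins, fell by 0.51 (adjusted p 0.0241), and Acvr1, a type I receptor, rose by 0.42 (adjusted p 0.0359). With Xist carriage as a covariate, edgeR called 3 of the 13 in fortified against moderate mutant cells, where it called 1238 of all genes. On average over the genotypes it then called 4 of the 13, where it called 2804 of all genes.

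Bmpr1b had 9.68, 7.96 and 9.73 CPM in fortified mutant and 12.6, 15.3 and 6.74 CPM in fortified wild type libraries, against 19.1, 19.8 and 35.7 CPM in moderate mutant and 10.6, 28.0 and 26.3 CPM in moderate wild type ones. As with Grem1, the mutant groups did not overlap and moderate wild type 1 lay among the fortified wild type libraries. Among 14 tested of 16 other antagonists and modulators, Fstl1, a secreted follistatin-like protein, rose by 0.53 (adjusted p 0.0186) and 0 fell. Among 6 SMADs and their ubiquitin ligases, Smurf1, which marks BMP SMADs for breakdown, fell by 0.41 (adjusted p 0.0422), and 0 rose. Of 12 tested of 16 other ligands and activin chains none passed, with a median log2 fold change of -0.54 against 0.00 over all genes.

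None of 12 BMP target genes passed, and their median log2 fold change was 0.36 on average over the genotypes, fortified against moderate. The smallest p among them was that of Msx1, a homeobox gene of dorsal neural tube and limb, at 1.34 (SE 0.44, adjusted p 0.0544). Id1, a direct SMAD target, had 87.9, 92.8 and 128 CPM in fortified mutant libraries, against 44.0, 39.1 and 26.9 CPM in moderate mutant ones. In wild type cells Id1 had 46.9, 61.2 and 66.0 CPM in the fortified libraries, against 129, 46.4 and 17.9 CPM in the moderate ones. The mutant groups of Id1 did not overlap, with a log2 difference of 1.49 (SE 0.52, adjusted p 0.0993), and the wild type groups did. In the fortified genotype contrast 11 of 12 targets were positive, with a median of 0.44, against 51.0% positive and a median of 0.01 over all genes, and none passed. With Xist carriage as a covariate, which is fitted from wild type libraries alone, 7 of 12 were positive, with a median of 0.04.

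**Figure D5:**
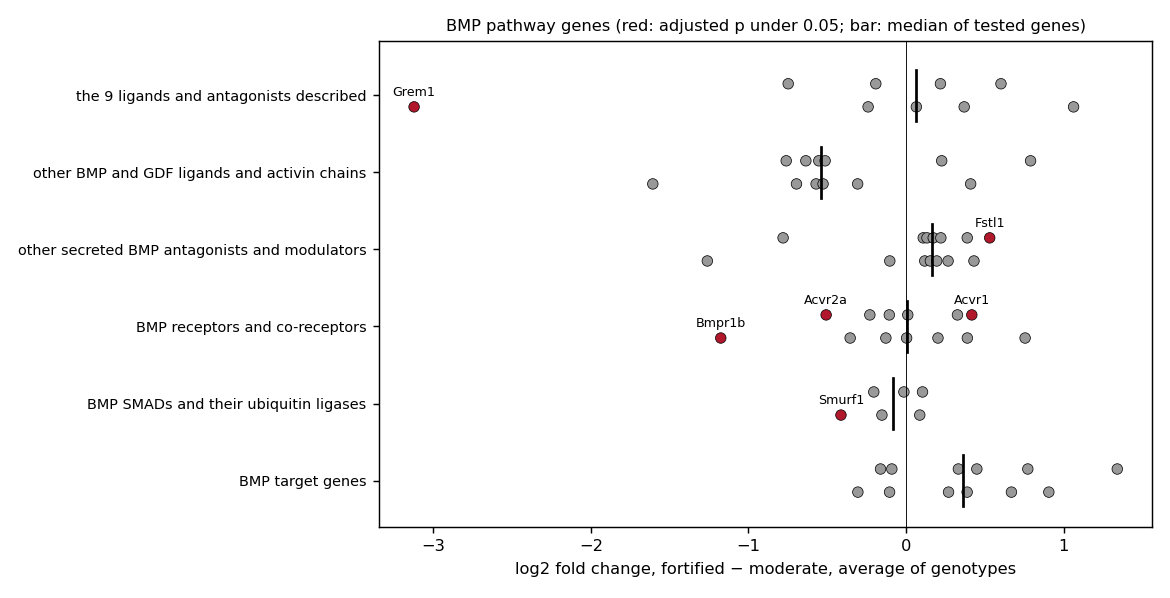
Log2 fold change, fortified minus moderate folic acid averaged over the genotypes, of each tested gene by list; red points have an adjusted p under 0.05 and the vertical bar is the list median. Grem1 lies far left at -3.12, Bmpr1b is at -1.18, and no BMP target gene passes.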

How the data were processed

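Libraries were made from polyadenylated RNA with a Tecan Universal Plus mRNA-Seq kit after trizol and chloroform extraction, per the labels' protocols. The authors deposited expected counts and TPM for each gene, which the names of the tables credit to salmon. The genome is mm10 per the submitters' processing notes. Its version, annotation and strand setting are not stated in what was used here. The table's columns were matched to samples by the column number, genotype and replicate in the labels. Coordinates are those of the GENCODE annotation of GRCm38 in hand.

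Expected counts were rounded. With edgeR's filterByExpr (counts of at least 10 in a group's worth of libraries, 15 in total) 15186 of 24279 genes were tested, after TMM scaling. A single edgeR 4.0.16 quasi-likelihood fit (R 4.3.3, 2-sided) took all 12 libraries with 4 group means, and 7 contrasts were read from it. Benjamini-Hochberg adjustment ran over every tested gene, and a gene passed under 0.05. CPM are counts per 1000000 after TMM. Simulated data, with 100 genes changed at each fold, were used to test the fit. In fortified against moderate mutant cells it recovered 23% of genes changed 2-fold and 61% of those changed 4-fold, and in wild type cells 18% and 62%. The simulation drew each gene independently, without the differences in makeup that many genes share between the real libraries. The shares recovered therefore need not hold for the real contrasts. Libraries of a group spread with a common coefficient of variation of 0.332 over all tested genes. Counting adds little to that except where counts are few, as for Chrdl1 at 14 to 219 counts. Among the 9 genes the coefficient within a group ran from 3.54% (Chrd, moderate mutant) to 139% (Bmp2, moderate wild type) on CPM.

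Alternatives were DESeq2 1.42.0, median-of-ratios scaling, no low-count filter, limma 3.58.1 on log2(TPM + 1) or log2(TPM + 0.1), a replicate block, Xist carriage (at least 1000 counts) as a covariate, and each library left out. Leaving out together the 3 libraries highest, or the 2 lowest, on the first principal component was chosen after the data were seen. The members, gene lists, markers and contrasts were all chosen with earlier results of these data known. Named genes were all 9 members, list genes that passed or had the smallest p, and for each member the 3 tested genes of at least 5 CPM with the highest Pearson correlation of log2 CPM. With strand not given, reads of Chrd and Thpo, of Fst and Gm47040, of Bmp4 and Gm15217 or Gm15222, and of Bmp5 and Gm26903 or Gm47723 cannot be told apart where they overlap.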

Additional observations from a re-analysis of the deposited data

How the results depend on the processing

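Of 1323 values (the 9 genes' log2 fold changes in 7 contrasts under 21 alternatives), 71 moved by at least the SD between replicates: 23 without the 3 libraries at the high end of the first principal component, 20 without the 2 at its low end, 15 without moderate wild type 1, 9 with Xist carriage as a covariate and 4 on TPM. Without moderate wild type 1 the wild type differences of Nog and Bmp7, fortified against moderate, were 0.16 and 0.39, against -0.75 and -1.31 with it; the cause was not tested. The Grem1 difference kept its direction in mutant cells and on average under all 21, and in wild type cells under 20. It was 0.06 in wild type cells without moderate wild type 2 and 3. In that fit Bmp2 passed in moderate mutant against wild type cells (-2.29, adjusted p 0.0469), on average over genotypes, fortified against moderate (-1.44, adjusted p 0.0244), and for the interaction (3.14, adjusted p 0.0416), as did Nog for the interaction (2.07, adjusted p 0.0491). On log2(TPM + 1) and log2(TPM + 0.1) the median of all genes was -0.23 and -0.30 in fortified against moderate mutant cells, where Grem1 was -3.32 and -3.39, -0.15 and -0.20 on average over genotypes, and 0.12 and 0.17 in moderate mutant against wild type cells.

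Counts of genes called moved more. In fortified against moderate mutant cells they were 1053 (637 higher, 416 lower), 2414 by DESeq2, 2814 on log2(TPM + 1) (306 higher, 2508 lower), 2805 on log2(TPM + 0.1), 559 with the replicate block, and 0 to 2073 with 1 library left out. In wild type cells they were 4, 1197 by DESeq2, 80 with no filter, 65 with the replicate block, 15 with the Xist covariate, 1 on log2(TPM + 1), 13 on log2(TPM + 0.1), 1298 without the 3 libraries, and 1 to 1012 with 1 left out. On average over genotypes they were 2696, and 1411 to 4025 with 1 left out. By genotype edgeR called 0, and DESeq2 50 in moderate cells, 6 in fortified cells, 18 on average and 8 for the interaction. Without moderate wild type 2 and 3 the counts were 2451 in mutant cells, 0 in wild type cells, 1304 on average over genotypes, 248 by genotype in moderate cells and 312 for the interaction. Same-numbered libraries correlated from -0.20 to 0.24 in their deviations from group means, and from 0.09 to 0.21 between fortified and moderate wild type cells. With 3 pairs a contrast, such weak values neither show nor exclude that the numbers pair the libraries. With the block Grem1 was -3.01 (adjusted p 0.0671) in mutant cells.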

Other observations

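By likeness over the 12 libraries (Pearson correlation of log2 CPM, a description with no test), the genes closest to Grem1 were Ggnbp2 (0.99), Rab11fip1 (0.98) and Hmox1 (0.98), the last encoding the haem-degrading enzyme heme oxygenase 1. Hmox1 had 52.1, 50.5 and 33.5 CPM in fortified mutant and 53.7, 66.0 and 52.0 CPM in fortified wild type libraries, against 82.4, 104 and 182 CPM in moderate mutant and 46.4, 196 and 174 CPM in moderate wild type ones. As for Grem1, moderate wild type 1 lay with the fortified libraries. On average over the genotypes Hmox1 fell by 1.36 on the log2 scale (SE 0.32). It was picked for its likeness to Grem1 over these same libraries, so this shared pattern follows from the choice and is no separate result. The genes closest to Bmp7 were Aldh1a2 (0.95), which makes retinoic acid, Rarb (0.93), a retinoic acid receptor, and Jazf1 (0.92). Aldh1a2, likewise picked by likeness, was highest in moderate wild type 1 at 136 CPM and next in fortified mutant 3 at 62.0 CPM, as was Bmp7.

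The genes next to Grem1 on chromosome 2, chosen after their values were seen, did not pass. Fmn1, which encodes formin 1, had 12.9, 19.6 and 12.9 CPM in fortified mutant libraries, against 28.9, 28.8 and 35.3 CPM in moderate mutant ones, with a log2 difference of -1.04 (adjusted p 0.108). In wild type cells the Fmn1 difference was -0.03, beside -3.00 for Grem1. Scg5 on the other side was 1.27 (adjusted p 0.342) in mutant cells.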
